A study of Mus musculus with 32 samples.

Results

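Among 32 libraries of subcutaneous white fat, 5 held high levels of B cell genes, and these 5 are described here against the 11 other libraries taken at the same times of day. They were chosen by measured values, namely the normalised read counts of Cd79a, Cd79b and Cd22. Cd79a and Cd79b encode the signalling chains of the B cell antigen receptor, and Cd22 encodes a surface lectin of B cells that restrains it. C57BL/6J mice had either vertical sleeve gastrectomy (VSG), in which most of the stomach is taken away, or sham surgery, and their fat was taken on day 9. Both surgeries shared the same feeding scheme, with liquid food and an overnight fast before the operation and liquid food and then a high-fat diet after it. Tissue was taken at zeitgeber time (ZT, hours after lights on) 1, 7, 13 or 19, with 4 animals for each surgery and time. The 5 libraries were replicate 1 of ZT1 sham, replicates 1, 3 and 4 of ZT1 VSG, and replicate 1 of ZT13 VSG. The 11 others were 3 of ZT1 sham, replicate 2 of ZT1 VSG, 3 of ZT13 VSG and the 4 of ZT13 sham. The 16 libraries of ZT7 and ZT19 took no part in the choice. Replicate numbers are names only.

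Lymph nodes filter lymph and bring lymphocytes together with antigen. B cells gather in follicles around stromal cells that secrete the chemokine CXCL13, and T cells gather in the paracortex around stromal cells that secrete CCL19 and CCL21. Naive lymphocytes enter from the blood through high endothelial venules, whose cells carry sulphated sugar ligands for lymphocyte homing receptors, and macrophages line the sinuses. In the mouse, subcutaneous fat of the inguinal depot encloses a lymph node. The labels name the tissue as subcutaneous white fat and name neither the depot nor whether a node was removed.

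The markers stood far apart from the rest in the 5 libraries. Cd79a had normalised read counts of 4711 in ZT1 sham replicate 1, 5316, 7672 and 577 in ZT1 VSG replicates 1, 3 and 4, and 3292 in ZT13 VSG replicate 1. In the 11 others it ranged from 19.5 to 106.5 around a median of 34.4. Cd79b was 6022, 6812, 10353, 831 and 3863 in the 5 libraries, in the same order, against 36.8 to 167 in the others. Cd22 was 3763, 4581, 7488, 554 and 3118, against 28.8 to 170.5. All 5 lay above all 11 for each marker, and ZT1 VSG replicate 4 was the lowest of the 5 by a wide margin. Taken as the mean log2 of the 3 markers, the library just inside the choice had 9.33 and the one just outside, ZT1 sham replicate 3, had 6.86. Among the libraries of ZT7 and ZT19 the highest mean was 7.71, in ZT7 VSG replicate 2, where Cd79a was 191. Cd79a lies on chromosome 7 (24897381 to 24902197, plus strand), Cd22 on chromosome 7 (30865402 to 30880342, minus strand) and Cd79b on chromosome 11 (106311341 to 106314762, minus strand) of mm10.

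**Figure D1:**
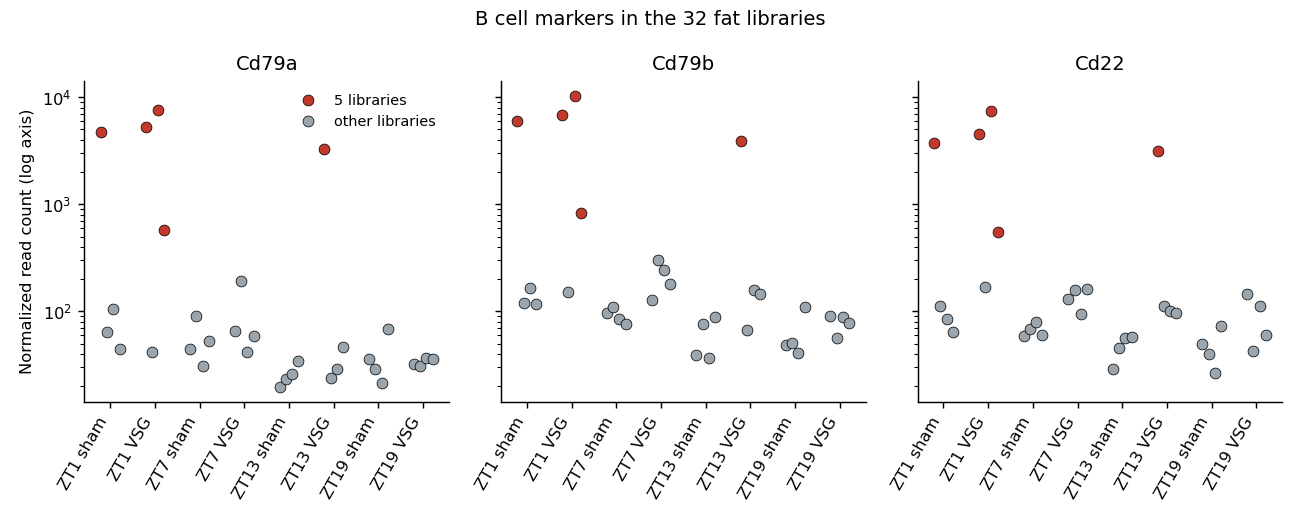
Normalised read counts (log axis) of Cd79a, Cd79b and Cd22 in each library, by surgery and zeitgeber time, with 4 libraries per group. The 5 libraries, in red, lie at 554 and above for each gene; no grey library exceeds 301.

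The depth of the 5 libraries lay within that of the series. They held 19.2 to 31.0 times 1e6 recovered reads, within the 15.7 to 37.2 times 1e6 of the whole series. Their mean was 24.4 times 1e6, against 27.4 times 1e6 in the 11 others. Within groups they were 1.31 times 1e6 lower (difference -1.31, two-sided exact permutation p = 0.703, 64 arrangements). That difference was -3.32 without ZT1 VSG replicate 2 and -0.07 without ZT13 VSG replicate 1, the ends of its range over single omissions. With so few libraries the test cannot exclude a difference in depth. Genes listed at 0 were fewer in the 5 libraries than in the 11 others, where they numbered 377 to 566. There were 136 in ZT1 sham replicate 1, 169, 98 and 309 in ZT1 VSG replicates 1, 3 and 4, and 246 in ZT13 VSG replicate 1. Of the libraries at ZT1 and ZT13, 4 of 8 after VSG and 1 of 8 after sham surgery were among the 5. Weight loss, recorded without a unit, was 2.63 in ZT1 sham replicate 1, 17.6, 15.6 and 11.9 in ZT1 VSG replicates 1, 3 and 4, and 22.8 in ZT13 VSG replicate 1. Within groups it was 1.94 lower in the 5 animals than in the others (difference -1.94, two-sided exact permutation p = 0.531, 64 arrangements, smallest possible p 0.0156), and without ZT1 VSG replicate 2 it was 1.95 higher (p = 0.5). Skeletal muscle markers were high in 4 of the 11 others (ZT1 VSG replicate 2, ZT1 sham replicate 4, ZT13 VSG replicate 3 and ZT13 sham replicate 2, with a mean log2 over 6) and in none of the 5; libraries over that level are called muscle-rich.

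Across all genes, a log2 difference between the 5 libraries and the others was fitted with a mean for each surgery and time. Because B cell genes chose the libraries, these differences are a description and carry no test. The difference rests on the 3 groups that hold libraries of both kinds, since no ZT13 sham library was among the 5, and ZT1 VSG replicate 2 is the only counterpart of 3 of the 5. They were taken on log2(value + 1), so those of genes near 0 are understated. Of 15588 genes with a mean of at least 10, 998 (6.4%) were at least 2-fold higher in the 5 libraries and 317 (2.03%) at least 2-fold lower. All 5 libraries lay above all 11 others for 561 genes (3.6%) and below them for 130 (0.834%). Both conditions held for 415 genes in the upward direction and for 6 in the downward one. The median over all genes was -0.04. In whole tissue, more cells of a type and more RNA per cell cannot be told apart. Nothing is read from these shares about the lists, since the choice of libraries fixes their direction.

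**Figure D2:**
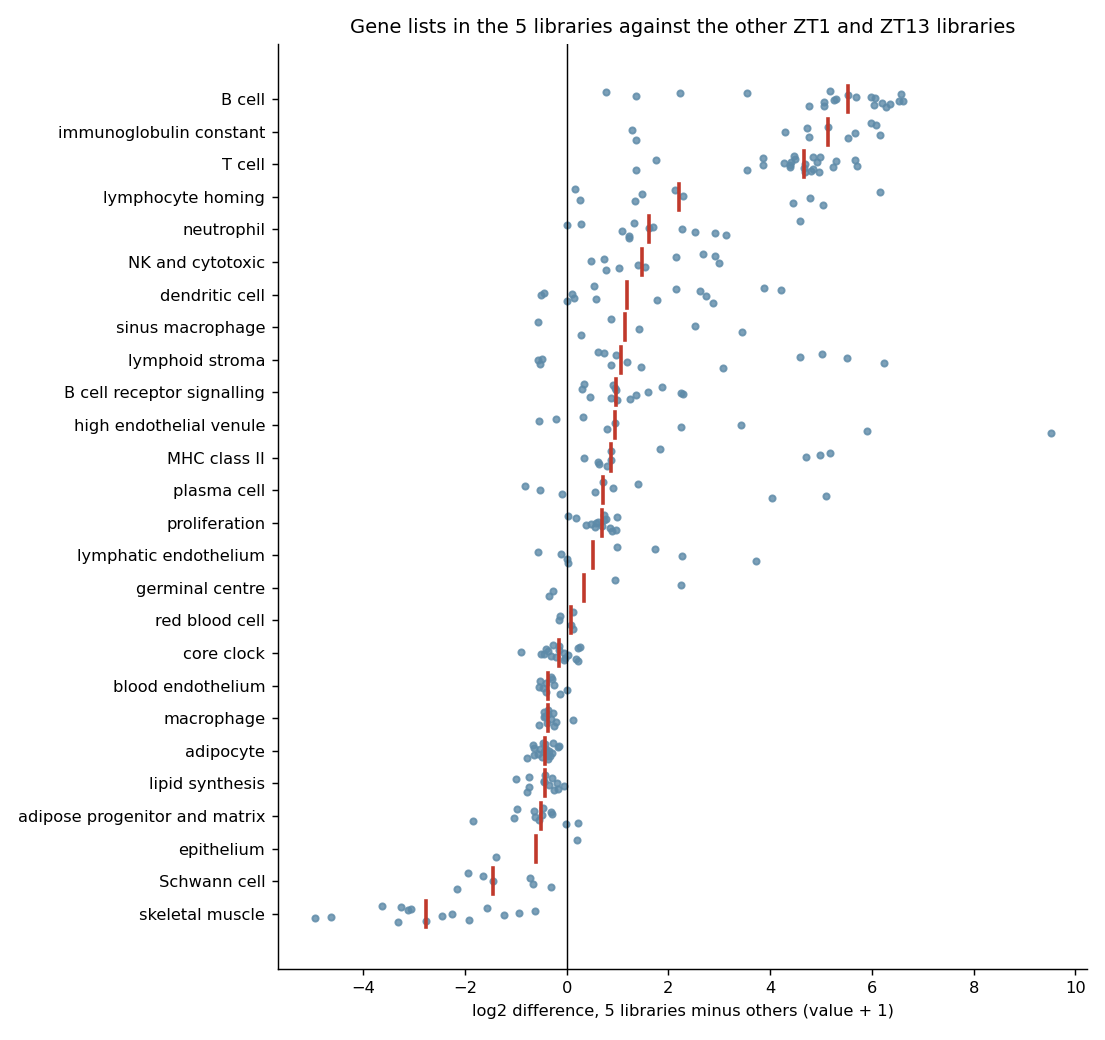
Log2 difference between the 5 libraries and the others, on the log2(value + 1) scale, for each measured gene of 26 lists (points) with the median of each list (red line). The B cell list, which holds Cd79a, Cd79b and Cd22, has the highest median, 5.54, and the skeletal muscle list the lowest, -2.77.

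B cell genes were higher nearly throughout the list. Of its 21 members, 20 were at least 2-fold higher, with a list median of 5.54, and 18 did not overlap between the 5 libraries and the others. Cd79a, Cd79b and Cd22, which chose the libraries, are among the 20 and the 18, so their part was fixed by that choice. Cr2, the complement receptor of B cells and follicular dendritic cells, was 1781 in ZT1 sham replicate 1, 1720, 2924 and 133 in ZT1 VSG replicates 1, 3 and 4, and 1072 in ZT13 VSG replicate 1, against 5.49 to 24.7 in the others (log2 difference 6.62 ± 0.63, SE). Pax5, the transcription factor that keeps B cell identity, was 3028, 2986, 4469, 333 and 1829 against 13.3 to 56.3. For both genes all 5 lay above all 11. Ms4a1, which encodes CD20, differed by 6.37. Fcer2a, the low-affinity IgE receptor of mature B cells, differed by 6.54, and Tnfrsf13c, the receptor for the survival factor BAFF, by 6.58. Ighd, the IgD heavy chain made by naive B cells, was 11950, 10329, 15632, 1295 and 6439 against 72.0 to 331. Relative to Cd79a, Ighd was between 1.94 and 2.54 in the 5 libraries, a 1.31-fold range, and Cr2 between 0.231 and 0.381, a 1.65-fold range with ZT1 VSG replicate 4 lowest.

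The members with the smallest differences also had high levels in the other libraries. Ighm, the IgM heavy chain, was 49742, 56026, 44064, 20555 and 17054 in the 5 libraries against 4276 to 56026 in the others, and the groups overlapped (1.36 ± 0.50). Cd180, a receptor also used by myeloid cells, was 465 to 1121 against 200 to 802 (0.78 ± 0.31). Cd72, an inhibitory coreceptor, was 486 to 2646 against 104 to 526 and overlapped through ZT1 VSG replicate 4.

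T cell genes were high in the same libraries but in other proportions. All 24 members that passed the filter on low values, of 26 listed, were at least 2-fold higher, with a median of 4.67, and 21 did not overlap. The other 2, Icos and Ctla4, were below the filter. Cd3e, a chain of the T cell receptor complex was 2123 in ZT1 sham replicate 1, 984.5, 1240.4 and 107 in ZT1 VSG replicates 1, 3 and 4, and 575 in ZT13 VSG replicate 1. Cd8a, the coreceptor of cytotoxic T cells, was 3878, 1243, 1978, 113 and 911, against 10.2 to 52.6 in the others (5.25 ± 0.69). Tcf7, a transcription factor of naive and memory T cells, was 6495, 2221, 3425, 286 and 1272, and its partner Lef1 was 1669, 583, 942, 51.8 and 377. For each of these 4 genes the sham library was the highest of the 5, although 2 of the VSG libraries had more Cd79a.

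The ratio of T cell to B cell genes therefore set the sham library apart. Cd8a over Cd79a was 0.823 in ZT1 sham replicate 1 and between 0.196 and 0.277 in the 4 VSG libraries. Cd3e over Cd79a was 0.451 against 0.162 to 0.186, Cd4 over Cd79a was 0.544 against 0.303 to 0.384, and Cd8a over Cd4 was 1.51 against 0.511 to 0.866. With 1 sham library among the 5 there is no replicate of this contrast. These ratios of normalised read counts are not corrected for gene length and are compared only between libraries. Other genes were also highest in the sham library: Dapl1 was 740, 205, 394.5, 12.95 and 143, and Nsg2 was 1829.8, 513, 923, 35.3 and 420.5. So were genes of dendritic cells, with Ccl22, a chemokine of mature dendritic cells, at 2498, 873, 1267, 87.1 and 690.0, and Ccr9, a chemokine receptor of immature T cells and plasmacytoid dendritic cells, at 253, 113, 95.7, 9.42 and 58.0.

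A common scale for these levels is the excess over the median of the 11 others, as a percentage of that in ZT1 VSG replicate 3. The 18 B cell genes on this scale include Cd79a, Cd79b and Cd22, which chose the libraries. Their median excess was 62.3% in ZT1 sham replicate 1, 66.2% in ZT1 VSG replicate 1, 6.84% in ZT1 VSG replicate 4 and 40.8% in ZT13 VSG replicate 1. For 21 T cell genes it was 178%, 61.6%, 6.5% and 37.7%. Over all 415 genes that were 2-fold higher without overlap it was 94.7%, 67.1%, 9.21% and 44.0%. Within the VSG libraries the B and T cell percentages stayed close to each other, and in the sham library they did not. Those 415 genes together made up 1.89%, 2.01%, 2.24%, 0.294% and 1.04% of the summed values of the 5 libraries, in the order used above, against 0.078% to 0.177% in the 11 others and 0.0658% to 0.186% at ZT7 and ZT19. They were picked as higher in the 5 libraries, so that choice fixed the direction against the 11 others, and only the size is described.

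**Figure D3:**
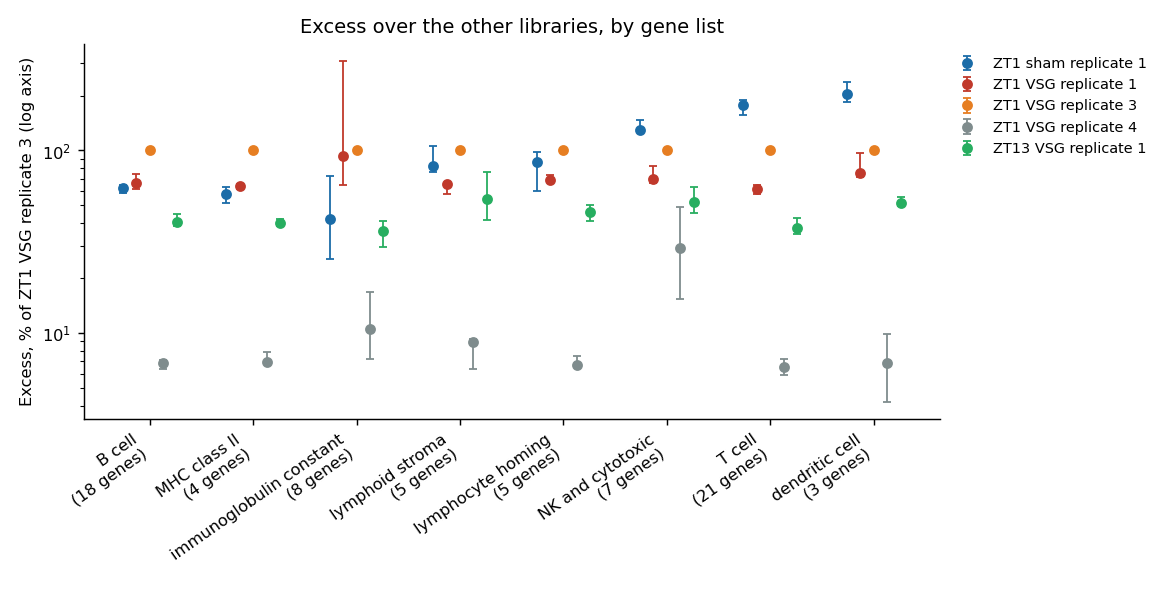
Median excess of each of the 5 libraries over the median of the 11 others, as a percentage of ZT1 VSG replicate 3 (log axis), for the genes of 8 lists that were 2-fold higher without overlap; bars span the quartiles over genes. ZT1 sham replicate 1 sits at 62.3% for B cell genes and at 178% for T cell genes.

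Genes of lymphocyte traffic were high as well. Of 10 homing genes, 8 were at least 2-fold higher (median 2.21) and 5 did not overlap. Ccr7, the receptor that guides naive lymphocytes and dendritic cells into nodes, was 3329, 1388, 2294, 182.5 and 961 against 16.7 to 70.2. Cxcr5, the receptor for CXCL13, was 1159, 1316, 1913, 175 and 895 against 28.8 to 60.2, and Ccr6, a chemokine receptor of B cells, was 28.3 to 438 against 0 to 4.63. Klf2 and S1pr1, which govern exit from lymphoid organs and are also expressed in vessels, differed by 0.17 and 0.27.

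Genes of high endothelial venules, whose cells carry sulphated sugar ligands for homing receptors, differed widely from each other. Glycam1, a mucin that carries such ligands (chromosome 15, 103562762 to 103565078, minus strand, mm10), was 1990.5, 2154, 2470.5, 221 and 2019 in the 5 libraries, and 0 to 9.26 with a median of 0 in the 11 others. Its difference was 9.51 ± 0.81 on the log2 scale with a pseudocount of 1 and 7.92 with a pseudocount of 5. Chst4, the sulphotransferase that completes those ligands, was 66.7, 84.8, 115, 10.6 and 82.2 against at most 0.972. Madcam1, an addressin, was 112, 138, 168, 12.95 and 78.5 against 1.86 to 23.15, and Fut7, a fucosyltransferase of the same ligands, was 203, 159, 212, 54.15 and 150 against 14.2 to 62.7. The last 2 overlapped through ZT1 VSG replicate 4. The 5 other list members, Gcnt1, Chst2, Enpp2, Ackr1 and B3gnt3, differed by -0.54 to 0.96, and their levels in the 11 others were well above 0. In all, 4 of 9 members were at least 2-fold higher and 2 did not overlap. The mammary gland also makes Glycam1. Of 7 epithelium genes 2 passed the filter, Cdh1 (log2 difference 0.20) and Krt19 (-1.39), both with overlap. In the 5 libraries Krt5, Krt14 and Krt8 were between 0 and 1.46, and Krt18 was between 2.42 and 7.30. Epcam, another epithelial marker that some lymphoid cells also express, was 50.5, 54.1, 54.1, 2.35 and 26.6 against 0 to 12.25.

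Lymphoid stroma genes were higher in part. Of 14 lymphoid stroma genes, 7 were at least 2-fold higher and 5 did not overlap (median 1.08). Grem1, a BMP antagonist of node fibroblasts, was 182, 91.9, 140.3, 12.95 and 107.5 against 0 to 1.143. Tnfsf11, which encodes RANKL, was 71.8, 65.4, 93.5, 9.42 and 89.4 against 0 to 5.40. Lta and Ltb, the lymphotoxin chains that lymphocytes use to instruct this stroma, differed by 5.51 and 4.59. They come from lymphocytes, so the counts for this list are not of stroma alone. Ccl19, the paracortical chemokine, was 30.8, 31.7, 103, 23.5 and 61.6 against 6.17 to 23.2. The lymphotoxin receptor Ltbr and the podoplanin gene Pdpn were not higher (-0.49 and -0.52). Ccl21a was not analysed here.

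Cxcl13 stood out within the 5 libraries. It was 1355 in ZT1 sham replicate 1, 4126, 3486 and 384 in ZT1 VSG replicates 1, 3 and 4, and 14105 in ZT13 VSG replicate 1, against 36.05 to 2506 in the others. Its ratio to Cd79a ran from 0.288 in the sham library to 4.29 in ZT13 VSG replicate 1, a 14.9-fold range, whereas Glycam1 over Cd79a varied 1.9-fold. The groups overlapped, since ZT13 VSG replicate 3 among the others had 2506. The log2 difference was 3.08 ± 0.92 (SE), 5.19 without the muscle-rich libraries, 4.11 without ZT1 VSG replicate 2 and 2.22 without ZT13 VSG replicate 1.

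Genes of sinus macrophages and of lymphatic vessels were high in part. Marco, a scavenger receptor of sinus and marginal macrophages, was 517, 2694, 5935, 280 and 3336 against 70.7 to 184 and did not overlap. Its ratio to Cd79a was lowest in the sham library (0.11) and highest in ZT13 VSG replicate 1 (1.01). Timd4 and Cd209b differed by 2.52 and 1.43 with overlap, whereas Siglec1 and Cd163 differed by 0.27 and -0.56. Prox1, the master regulator of lymphatic endothelium, was 42.75, 55.15, 67.9, 11.8 and 59.2 against 0 to 13.4, while Lyve1, which macrophages also express, differed by 0.02, a value that was -0.76 without ZT13 VSG replicate 1 and 0.60 without ZT1 sham replicate 1. Of the 8 lymphatic endothelium genes, 4 were at least 2-fold higher and 0 did so without overlap.

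Class II antigen presentation genes differed in size. H2-Ob, H2-Oa and H2-DMb2, parts of the class II loading machinery that B cells favour, were 487 to 6219, 144 to 1872 and 359 to 4100 against at most 99.7, 33.7 and 106. The classical class II gene H2-Aa was 28538 to 44415 against 10925 to 28138, so its levels did not overlap either, but its difference was 0.80. Of 10 class II genes, 7 did not overlap and 4 were at least 2-fold higher. Of 10 natural killer and cytotoxic genes, 7 did not overlap and 7 were at least 2-fold higher, led by Klrd1 (2.99).

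Antibody genes varied widely between the 5 libraries. Of 11 immunoglobulin constant genes that passed the filter, of 12 listed, 11 were at least 2-fold higher and 8 did not overlap (median 5.14); Ighe was below the filter. Igkc, the kappa light chain, was 12023 in ZT1 sham replicate 1, 83928, 35714 and 3534 in ZT1 VSG replicates 1, 3 and 4, and 17529 in ZT13 VSG replicate 1, against 92.9 to 1720. Ighg3 was 288.1, 60360, 2999, 426 and 301 against 0 to 287.8, far above the rest in ZT1 VSG replicate 1 and barely apart in ZT1 sham replicate 1. Ighg1 was 103, 8044, 1529, 385 and 214 against 0 to 54.0, and the same library was again the highest. Ighg2b was 480.5, 13194, 9257, 197 and 8556 against 0.93 to 385 and overlapped. Ighg2c, by contrast, was highest in ZT1 VSG replicate 3, at 656, 747, 2105, 71.8 and 740 against 0 to 37.8.

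Genes of antibody secretion were high in part. Jchain, which joins polymeric IgM and IgA, was 583, 5945, 2644, 421 and 1156 against 10.2 to 327, and its ratio to Cd79a ran from 0.124 in the sham library to 1.12 in ZT1 VSG replicate 1. Mzb1, a chaperone of B and plasma cells, was 465, 1410, 987, 71.8 and 516 against 0.905 to 44.0. Other plasma cell list members, such as Xbp1 and Sdc1, which fat and other cells also express, differed by -0.09 and -0.52, and 3 of 9 were at least 2-fold higher. Of the 4 germinal centre genes that passed the filter, 1 was at least 2-fold higher, and Bcl6, a transcription factor of germinal centre B cells, differed by -0.34.

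Variable (V) segments, which encode the antigen-binding part, were also unevenly used. The 160 immunoglobulin V segments in the table summed to 5677, 42927, 13848.5, 1747 and 5935 in the 5 libraries, against 50.2 to 1101 in the 11 others. In ZT1 VSG replicate 1, 3 segments held 68.2% of that sum: Igkv1-122 at 13510.1 (31.5%), Ighv6-3 at 9637 (22.4%) and Igkv2-112 at 6145 (14.3%). Each of these was at most 41.1 in the other 4 libraries and at most 56.3 in the 11 others. In ZT1 sham replicate 1 the top 3 held 12.3%, in ZT1 VSG replicate 3 they held 21.7%, in ZT1 VSG replicate 4 29.5% and in ZT13 VSG replicate 1 24.3%. The highest segment differed between libraries, being Iglv1 in ZT1 sham replicate 1 and ZT1 VSG replicate 4, Igkv1-110 in ZT1 VSG replicate 3 and Igkv4-74 in ZT13 VSG replicate 1. Segments of these families are near-identical, and how reads were divided among them, or by strand, was not stated, so single segments and constant genes are uncertain. The 43 T cell receptor V segments summed to 2890, 866, 1275, 94.2 and 468 against 12.0 to 41.3, and their top 3 held 24.6% to 36.3%.

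**Figure D4:**
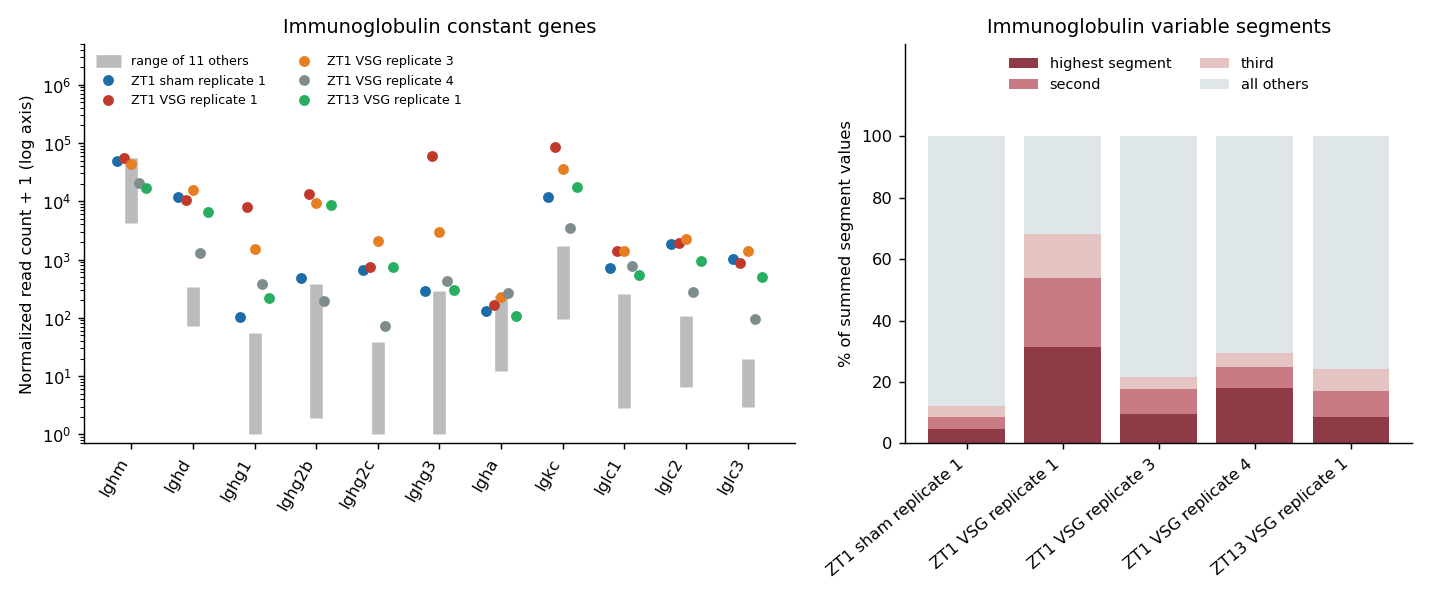
Left, normalised read counts + 1 (log axis) of the immunoglobulin constant genes in the 5 libraries (points) with the range of the 11 others (grey). Right, share of the summed immunoglobulin V segment values held by the 3 highest segments; they hold 68.2% in ZT1 VSG replicate 1 and 12.3% in ZT1 sham replicate 1.

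Neutrophil genes were higher in the 4 VSG libraries than in the sham library of the 5. Their mean log2 was 4.84 in ZT1 sham replicate 1, 10.01, 8.53 and 7.51 in ZT1 VSG replicates 1, 3 and 4, and 9.95 in ZT13 VSG replicate 1. Among the others it reached 8.43 in ZT13 VSG replicate 3 and 7.26 in ZT13 VSG replicate 4. It was 6.50 in ZT1 VSG replicate 2, 5.355 in ZT13 VSG replicate 2 and at most 5.41 in sham libraries. Mpo, the myeloperoxidase of immature neutrophils, was 5.99 in ZT1 sham replicate 1, 818, 144 and 50.6 in ZT1 VSG replicates 1, 3 and 4, and 620 in ZT13 VSG replicate 1, against 0 to 43.8. Ngp, a granule protein, was 17.1, 2540, 820, 258 and 2399 against 0 to 795, and S100a9 was 74.4, 5792, 2567, 1374 and 5788 against 12.1 to 3212. Of 13 list members, 11 were at least 2-fold higher (median 1.63) and 0 did so without overlap. Without ZT13 VSG replicate 1 the median was 0.98 with 6 members at 2-fold, without ZT1 VSG replicate 2 there were 7 such members, and without ZT1 sham replicate 1 the median was 2.53 with 11. Macrophage genes went different ways in the 5 libraries. In the fit 0 of 12 were 2-fold different in either direction (median -0.37, from -0.91 to 0.02 when single libraries were left out). Against the others of their own group, 7 of 12 were at least 2-fold lower in ZT1 sham replicate 1 and 7 in ZT1 VSG replicate 3, and 2 were at least 2-fold higher in ZT13 VSG replicate 1. C1qb, a complement gene of macrophages, was 3784, 18032, 9626, 16546 and 25132 against 5077 to 23896.

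Genes of fat were somewhat lower in the fit, though not in each of the 5 libraries. Of 20 adipocyte genes, 0 passed 2-fold in either direction and the median was -0.42. Against the others of its own group, the median was -0.524 in ZT1 sham replicate 1 and -0.517 in ZT13 VSG replicate 1. In ZT1 VSG replicates 1, 3 and 4 it was -0.4, -0.544 and 0.166. Plin1, the lipid droplet coat protein, was 34161, 36585, 38706, 48611 and 36477 against 45411 to 66888, and Adipoq, the adiponectin gene, was 72062, 80153, 59778, 87171 and 85252 against 80521 to 147129. ZT1 VSG replicate 4 reached into the range of the others for both genes, and ZT13 VSG replicate 1 for Adipoq. Lep, the leptin gene, was 85937 in the sham library and 21198 to 60771 in the 4 VSG libraries, against 42254 to 153257. Lipid synthesis genes (median -0.43), matrix genes (-0.51) and blood endothelium genes (-0.36) had 0, 2 and 0 members at least 2-fold lower. Within groups the lipid synthesis median was -0.406 in ZT1 sham replicate 1 and -0.931 in ZT13 VSG replicate 1. It was -0.134, 0.296 and 0.546 in ZT1 VSG replicates 1, 3 and 4. Schwann cell genes had a median of -1.45, with 4 of 7 at least 2-fold lower.

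The list with the lowest median was that of skeletal muscle, whose genes were high in 4 of the 11 others. The list median was -2.77, with 13 of 15 members at least 2-fold lower. Mb, the myoglobin gene, was 1.71, 1.02, 0.731, 1.18 and 1.21 against 2.58 to 1259, and Ckm, the muscle creatine kinase, was 0 to 4.83 against 0 to 5412. Only Mb did not overlap. Without ZT1 VSG replicate 2 the median was -1.12 with 8 members, and with the muscle-rich libraries left out it was 0.14 with 4 members higher and 3 lower. Among genes with a mean of at least 50, the lowest differences without overlap after Mb were Hspb7, a small heat shock protein of muscle (-1.69), Hcn2, a pacemaker channel (-1.29), Fam171a2 (-1.137) and Jun, a subunit of the AP-1 transcription factor (-1.06). Jun was 788, 1145, 1126, 1335 and 1313 against 1526 to 2803.

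Some of the highest differences without overlap, among genes with a mean of at least 50, were outside the marker lists. This mean, as for the lowest differences above, was over the libraries of ZT1 and ZT13. It includes the 5, so genes near 0 in the others can pass through the 5 alone. Dsc3, a desmosomal cadherin, was 515, 371, 463, 31.8 and 321 against 0 to 2.04. Serpina10, a protease inhibitor gene, was 287, 175, 312, 25.9 and 154 against 0 to 1.143. Ly6d, a surface protein of early and mature B cells, was 1708, 2602, 3918, 293 and 1709, and Cacna1i, a calcium channel gene, was 471, 526, 795, 50.6 and 328, against at most 45.5 and 8.49. Dapl1 and Nsg2, given above, complete the highest 15 together with Glycam1, Ccr6 and 7 genes of the B cell list. Among those 7 is Cd79a, a marker that chose the libraries. Cacna1i followed the order of Cd79a among the 5 libraries, whereas Dsc3 was highest in the sham library.

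The libraries of ZT7 and ZT19, which the choice did not use, show whether the same genes vary together at the low levels of the other fat samples. A slope on the mean log2 of the 3 markers was fitted in these 16 libraries with a mean for each surgery and time (limma, Benjamini-Hochberg over all genes). The marker mean ran from 4.89 to 7.71. Apart from the markers, 1 gene of 15585 (0.00642%) rose with it and 0 fell, with 1975 at an unadjusted p under 0.05. The gene was H2-Oa, with a slope of 1.48 ± 0.19 (SE, n = 16, limma adjusted p = 0.0197), that is, a change of 1.48 in log2 for each unit of the marker mean. Its call was lost when any of 6 libraries was left out (ZT7 VSG replicate 2, ZT7 sham replicate 2, ZT19 VSG replicates 1 and 2, ZT19 sham replicates 3 and 4; slopes 1.45 to 1.53 over all 16 omissions, adjusted p up to 0.325), with the muscle list as covariate (adjusted p = 0.0506) and with the muscle-rich libraries left out (0.0742). When Cd79a alone was the score, limma did not call H2-Oa and called 1 other gene upward, in a count that kept Cd79b and Cd22. On the marker mean, edgeR called 2 genes upward and 0 downward, and DESeq2 called 63 and 65. Counted with the 3 markers, 1978 genes had an unadjusted limma p under 0.05 in all 16 libraries. Without ZT19 sham replicate 4 they numbered 594, and on the other single omissions 1562 to 2461. In VSG libraries alone they numbered 372, and in sham libraries alone 1882.

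List members had positive slopes more often than they passed a test. Of 18 B cell genes other than the markers, 17 had a positive slope, with a median of 0.94, and 0 were called. Of 24 T cell genes, 23 had a positive slope (median 0.96, 0 called), as had 13 of 13 neutrophil genes (median 1.35, 0 called). The median over all genes was 0.01. Blk, a B cell kinase, had a slope of 1.21 ± 0.23, Ms4a1 of 1.15 ± 0.25, Ccr7 of 1.26 ± 0.24 and Tcf7 of 1.13 ± 0.21, with limma adjusted p of 0.16 to 0.19 and values from 0.000972 to 0.00878 with DESeq2. High endothelial venule genes had a median slope of 0.12. Glycam1 was at most 13.7 in these libraries and had a slope of 1.22 (limma adjusted p = 0.37).

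Since 4 of the 5 libraries followed VSG, the comparison of surgeries at ZT1 and ZT13 contains them. At ZT1, limma on all 32 libraries called 183 genes higher after VSG (1.17%) and 677 lower (4.34%), 860 in all. With the B cell marker mean as a covariate 362 genes were called, 224 of them shared with the 860, and without the 5 libraries 3. That last fit has 1 VSG library at ZT1, assumed to vary like the other groups. At ZT13, 657 genes were higher (4.21%) and 892 lower (5.72%), 1549 in all, with 984 under the covariate (697 shared) and 361 without the 5 libraries (320 shared). Counts also moved on leaving out single libraries. At ZT1 they were 2873 without sham replicate 1, 1812 without sham replicate 4, 76 without VSG replicate 1, 44 without VSG replicate 3, 26 without sham replicate 2, 21 without sham replicate 3, 596 without VSG replicate 2 and 1025 without VSG replicate 4. At ZT13 they were 2759 without VSG replicate 2, 197 without VSG replicate 1, 363 without VSG replicate 3, 607 without VSG replicate 4, and 817, 655, 419 and 548 without sham replicates 1 to 4. With the muscle-rich libraries left out, 46 genes were called at ZT13.

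**Figure D5:**
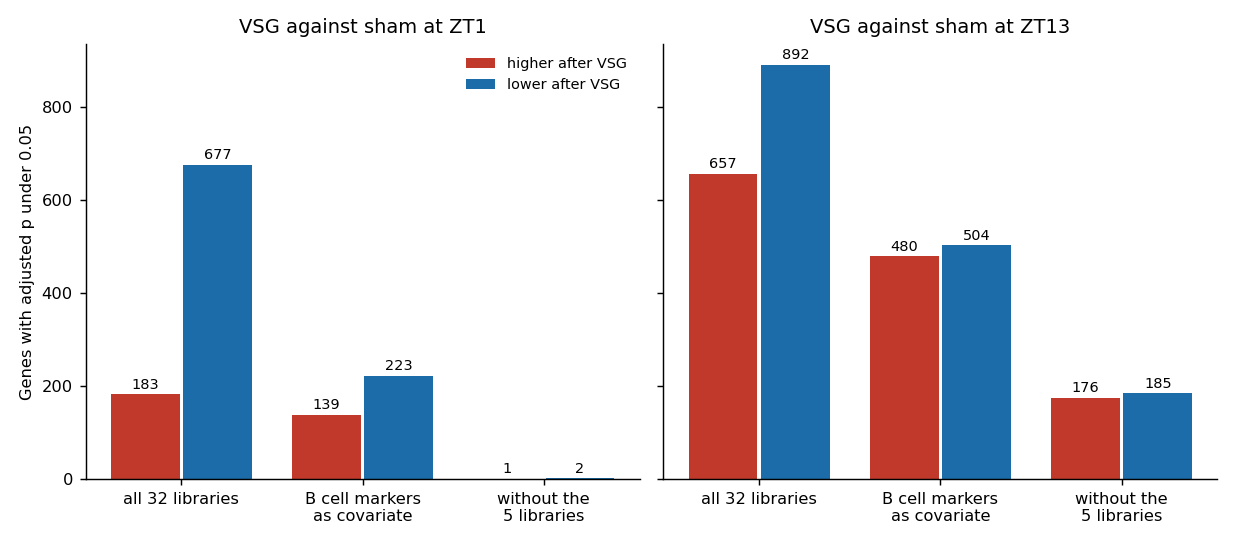
Number of genes with an adjusted p under 0.05 (limma) for VSG against sham at ZT1 and ZT13, in all 32 libraries, with the B cell marker mean as a covariate, and without the 5 libraries. At ZT1 the total goes from 860 to 362 and to 3; at ZT13 it goes from 1549 to 984 and to 361.

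Whether B cell genes were called between surgeries depended on single libraries and on the test. The B cell list had a median log2 difference of 2.27 at ZT1 and 1.83 at ZT13, VSG minus sham. Of its 21 members, 0 were called at either time. Without the 5 libraries the medians were -0.23 and 0.33. Those libraries were picked as high in B cell markers, so leaving them out takes away the highest values of such genes by that choice. It also leaves 1 VSG library at ZT1. Values of B cell genes without the 5 are therefore a description and no test of surgery. Without ZT1 sham replicate 1, limma called 18 of 21 at ZT1, and at ZT13 edgeR called 11 and DESeq2 19. Over all genes, these 3 fits called 1376, 790 and 1246 higher after VSG. Cd79a differed by 2.35 at ZT1 (limma adjusted p = 0.291), by 3.87 without ZT1 sham replicate 1 (adjusted p = 0.0384) and by -0.67 without all 5. At ZT13 it differed by 1.99 (limma adjusted p = 0.357; DESeq2 0.00223) and by 0.33 without ZT13 VSG replicate 1. Glycam1 differed by 4.46 at ZT1 (limma adjusted p = 0.184), by 6.92 without ZT1 sham replicate 1 (adjusted p = 0.0195) and by 0.90 without all 5. Among immunoglobulin genes, Ighg3 rose at ZT1, from 148 ± 161 after sham surgery to 15963 ± 29627 after VSG (SD, n = 4 each; log2 difference 4.88 ± 1.43 SE, limma adjusted p = 0.0425). Its call was lost with the covariate (0.13), without the 5 (0.738) and on leaving out any of ZT1 VSG replicates 1 and 3 and ZT1 sham replicates 2, 3 and 4.

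Most neutrophil genes were called at both times, and of the fat genes given here Lep was. Of 13 neutrophil genes, 10 were called higher after VSG at ZT1 and 3 with the covariate, where 183 and 139 of all genes were. Without the 5 libraries, which leaves 1 VSG library at ZT1, the neutrophil median was 2.06 against 3.54 in all libraries. At ZT13, 11 were called in all libraries, 10 with the covariate and 8 without the 5. Over all genes these fits called 657, 480 and 176 higher. Single omissions at ZT1 left 0 called without sham replicate 2, 2 without sham replicate 3 and 1 without VSG replicate 1 or 3. Few genes of any kind were called higher there, namely 0, 3, 6 and 5 in the same order. At ZT13, 7 were called without VSG replicate 1 and 5 without the muscle-rich libraries, against 83 and 26 of all genes. S100a9 rose by 4.61 ± 0.88 at ZT1 (limma adjusted p = 0.00919) and by 6.31 ± 0.88 at ZT13 (adjusted p = 0.000681). With the covariate these differences were 3.85 and 5.61, both called, and without the 5 libraries they were 3.18 (limma adjusted p = 0.359) and 5.82 (0.0115). At ZT1 the S100a9 call was also lost without sham replicate 2 (0.0599). Lep fell by 1.74 on the log2 scale at ZT1 (limma adjusted p = 0.0273), and was lower by 1.23 with the covariate (difference -1.23, adjusted p = 0.0777) and by 1.51 without the 5 (difference -1.51, 0.355). Its call was lost without any of ZT1 sham replicates 2 and 3 and ZT1 VSG replicates 1 and 3, and without the muscle-rich libraries (0.0553). Acsl1, which activates fatty acids, fell by 1.08 at ZT1 (limma adjusted p = 0.00961). Its difference was -0.99 with the covariate (limma adjusted p = 0.0242) and -1.38 without the 5. The Acsl1 call was lost without ZT1 sham replicate 2 or 3. At ZT1, 4 of 20 adipocyte genes and 1 of 13 lipid synthesis genes were called lower, against 4.34% of all genes. At ZT13 the Lep difference was -1.67 (limma adjusted p = 0.0229). That call was lost with the covariate (limma adjusted p = 0.0613), without the 5 (0.0839) and without the muscle-rich libraries (0.127). It held in 3 of 8 omissions of a single library.

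At ZT13, 3 of 10 class II genes, 2 of 6 sinus macrophage genes, 2 of 14 lymphoid stroma genes and 2 of 11 immunoglobulin constant genes were called higher, against 4.21% of all genes. Cxcl13 rose from 47.2 ± 12.3 after sham surgery to 4269 ± 6645 after VSG (SD, n = 4 each; log2 difference 4.63 ± 1.10 SE, limma adjusted p = 0.0146). Its difference was 3.24 with the covariate (limma adjusted p = 0.0309) and 3.43 without the 5 libraries (0.0492), and its call was lost without ZT13 VSG replicate 1 (0.0786), without replicate 3 and without the muscle-rich libraries (0.121). Ackr1, a chemokine-binding receptor of venules that was not higher in the 5 libraries, rose by 1.56 ± 0.32 (limma adjusted p = 0.00933) and stayed called under the covariate, without the 5 libraries and on leaving out each of 8 libraries, but not without the muscle-rich libraries (1.47, 0.0674). Ighg2b rose by 5.45 ± 1.78 (0.0496) and Cd209b by 1.78 ± 0.57 (0.0461), and both calls were lost with the covariate (0.119 and 0.138), without the 5 (0.0944 and 0.14), without the muscle-rich libraries (0.1 and 0.157) and in 7 of 8 omissions of a single library. Whether the lymph node genes account for any of these surgery differences was not tested.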

How the data were processed

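RNA of 32 subcutaneous fat samples, 1 animal each and 4 per surgery and time, was sequenced. The authors deposited 1 table of gene signal values (18124 genes). All values of each library are whole multiples of 1 step (100% within 0.001), that is, counts divided by a size factor, and 15.7 to 37.2 times 1e6 whole reads were recovered per library. The submitters' processing notes name build mm10 and the tools featureCounts 1.5.0-p1, DESeq2 1.24.0 in R 3.6.3, and STAR 2.5.2a, without their roles. Here log2(value + 1) of the 15588 genes with a mean of at least 10 was fitted with limma 3.58.1 (R 4.3.3), a mean-variance trend and a mean per surgery and time, with calls at a Benjamini-Hochberg adjusted p under 0.05. The slope used the 16 libraries of ZT7 and ZT19. edgeR 4.0.16 and DESeq2 1.42.0 on recovered reads, other filters, pseudocounts and scalings, covariates and omitted libraries were alternatives. The fits were tested on simulated data. In 48 pairs within groups, counts differed by a chi-square of at least 19.6 per degree of freedom, so no library was counted as a duplicate. The members and gene lists were chosen with earlier results of these data known. Named genes were all members of the B cell, venule, lymphoid stroma and immunoglobulin lists, up to 4 at either end of each other list, the 15 highest and 15 lowest without overlap, and called slopes. Further named members of lists were chosen after their values were seen. Ighd and H2-Ob stand in 2 lists each. Mef2b and Ccl21a were not analysed here. Some genes of the lists are not reported here.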

Additional observations from a re-analysis of the deposited data

Results flagged for a closer look

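In 124 checks of groups of 4 libraries, each over 1 marker, gene list or label, 20 had 1 library farther from its nearest neighbour than a 95% limit for a gap allows. Chance gives such a gap in about 1 in 20 groups, and the lists share cells and libraries. ZT1 sham replicate 1 and ZT13 VSG replicate 1 were chosen as high in Cd79a, Cd79b and Cd22. Their gaps in these markers and in genes that go with them follow from that choice and cannot be set against this rate. ZT1 sham replicate 1 stood above the 3 other libraries of its group in 9 of them. Its mean log2 was 11.53 for the B cell list (others 6.17 to 6.61), 10.67 for T cell genes (4.97 to 5.27) and 10.65 for homing genes (7.17 to 7.67). It was 8.89 for lymphoid stroma (6.67 to 6.78), 9.07 for dendritic cells (6.97 to 7.07), 12.61 for MHC class II (10.21 to 10.51) and 6.20 for germinal centre genes (4.88 to 5.08). Its log2 values of Cd79b and Cd22 were 12.56 and 11.88. ZT13 VSG replicate 1 stood above its group in 6, with a mean log2 of 10.96 for B cell genes (others 5.48 to 5.85), 9.88 for immunoglobulin constant genes (4.87 to 5.65), 10.15 for homing genes (7.25 to 7.56) and 8.38 for dendritic cells (6.91 to 7.16). Its log2 values of Cd79a and Cd22 were 11.68 and 11.61. In ZT1 VSG, 3 of 4 libraries were high in B cell markers and none stood apart from the others in B cell genes.

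Skeletal muscle genes stood high in 1 library of each of the 4 groups at ZT1 and ZT13, and none of these was among the 5. Their mean log2 was 7.41 in ZT1 sham replicate 4 (others 4.24 to 4.46), 9.53 in ZT1 VSG replicate 2 (3.73 to 3.94), 10.78 in ZT13 sham replicate 2 (3.94 to 4.41) and 7.03 in ZT13 VSG replicate 3 (3.69 to 3.99). ZT1 sham replicate 4 also had a weight loss of 8.96 against 2.15 to 2.63 in its group.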

How the results depend on the processing

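The number of genes at least 2-fold higher in the 5 libraries was 1723 with no filter and 551 with a mean of at least 50. The number at least 2-fold lower was 482 and 163 under the same filters, 622 with quantile normalisation and 673 in the ZT13 libraries alone. Leaving out single libraries gave 900 to 1179 higher and 285 to 429 lower. The slope at ZT7 and ZT19 had 0 rising genes with a mean of at least 50, with the muscle list as covariate, without the muscle-rich libraries, in VSG alone and in sham alone; it had 2 with edgeR, 63 with DESeq2 and 0 to 2 on omissions. Falling genes numbered 65 with DESeq2, 1 without the muscle-rich libraries and 0 to 1 on omissions. For VSG against sham, ZT1 had 1518 calls with DESeq2, 362 with the B cell covariate, 3 without the 5 libraries and 21 to 2873 on omissions; ZT13 had 2491, 984 and 361, 46 without the muscle-rich libraries, and 197 to 2759 on omissions. Ckm turned to 0.049 with the muscle covariate and 0.27 without the muscle-rich libraries. The surgery difference of Cd79a turned to -0.44 with the covariate and -0.67 without the 5 at ZT1, and to -0.57 with the covariate at ZT13, where its markers are part of the covariate. The 5 were picked on Cd79a, so its value without them follows from that choice. The surgery difference of Glycam1 at ZT13 turned to -1.14 with the covariate and -0.093 without the 5, and ran from -0.093 to 3.57 on omissions. Weight loss turned to 4.55 with groups ignored and 3.31 without the muscle-rich libraries, and ran from -3.86 to 1.95 on omissions. Except for these omissions and subsets, which have fewer samples or genes, the cause was not tested. No paired analysis was possible because the labels give no replicate numbers that link animals across groups. With 1 sham library and 1 ZT13 library among the 5, differences among them have no replicates.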
